A study of Danio rerio with 8 samples.

Results

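The rows described here are the genes for secreted and membrane-bound axon guidance cues and their receptors. They were picked by a name pattern, with earlier results of these data known. The pattern covers the semaphorins of classes 3 to 7, the plexins, the Slits and Robo1 to Robo3. It also covers the netrins with Dcc and the Unc5 receptors, and the ephrins with their Eph receptors. Such a symbol stands at 90 of the 36351 rows of the counts, 52 for ligands and 37 for receptors. The remaining row, unc50, matched the name pattern only. Its worm counterpart is known for the assembly of acetylcholine receptors, and it is not a netrin receptor. The RNA, depleted of ribosomal RNA, came from pooled intact zebrafish embryos 26 hours after fertilisation. There were 4 pools labelled MZ (maternal-zygotic) osgep G177A/G177A, called mutant here, and 4 wild-type pools. By that label, mother and embryo alike have no osgep allele other than G177A. The gene encodes the enzyme of KEOPS, a complex that modifies tRNAs. The comparison asks which transcripts differ between these genotypes. The labels do not say whether the pools came from separate clutches, so each p-value sets a difference against pool-to-pool spread that may be technical.

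Growing axons are steered by cues that attract or repel their tips. Slits, made by the floor plate among other sources, act through Robo receptors and keep axons from crossing or re-crossing the midline. Netrins attract axons through Dcc and repel them through Unc5 receptors. Class 3 semaphorins are secreted and mostly repel through plexins bound to neuropilins, whereas the other classes are largely membrane-bound and can bind plexins directly. Ephrins and Eph receptors are both anchored in the membrane, signal at cell contacts in both directions, and sort axons and cells into territories. Many of these genes are also used outside the nervous system, in blood vessels, somites and neural crest, and a whole-embryo pool adds up all of these sources.

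Each library held 21290897 to 27675043 rounded expected counts, of which the 90 rows took 62789 to 100914. Levels are given as CPM, counts scaled to the same library size in all pools, and averages are mean ± SD over the 4 pools of a genotype. Expression of osgep itself was 10.7 ± 2.25 CPM in the mutant and 19.2 ± 3.24 CPM in wild type (SD, n = 4 each). It was lower in the mutant (log2 fold change of mutant over wild type −0.84, edgeR adjusted p = 0.00826), and the pools did not overlap. Such a level does not tell which allele the reads came from. The pools of a genotype were not alike. Ribosomal protein genes took 14.4, 7.26, 8.80 and 9.89% of the counts in mutant pools 1 to 4, against 14.1, 10.5, 12.97 and 8.005% in wild-type pools 1 to 4. Mutant pool 1 and wild-type pool 1 were thus high, and mutant pool 2 and wild-type pool 4 were low. The first principal component of all genes tested (54.0% of the variance) separated the genotypes, and the second (28.8%) ran from mutant pool 1 to wild-type pool 4. Counts of called rows are given below with and without these libraries, and the rows added without mutant pool 1 are named.

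Of the 90 rows 88 had enough counts to be tested. The other two were epha8, with 12 counts over the mutant libraries and none over the wild-type libraries, and unc5a, with 1 count in each genotype. With edgeR (quasi-likelihood) and p-values adjusted by Benjamini-Hochberg over the 22467 genes tested, 14 of the 88 were higher and 12 lower in the mutant at an adjusted p under 0.05. That is 29.5% of the rows, where 32.2% of all genes tested passed (15.8% higher and 16.3% lower), so the share of the set was near the background. Its median log2 fold change (mutant over wild type) was 0.02, against 0.00 over all genes tested. No mutant pool overlapped a wild-type pool in 26 of the 88 rows, 11 higher and 15 lower in the mutant, where 33.7% of all genes tested did not overlap (16% higher and 17.6% lower). By family, 3 of 4 Slits and 5 of 12 class 3 semaphorins were higher, no ephrin was higher and no Robo was called. Less RNA per cell and fewer cells of a type cannot be told apart in such pools, here or in any result that follows.

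The count of 14 higher and 12 lower depended on the libraries, as did the count over all genes. Without mutant pool 1 it became 26 higher and 15 lower, 46.6% of the rows against 37.5% of all genes. Added as higher were sema3ab, sema3d, sema3h, efnb2a, ntn1b, ntn2, plxna2, plxnb2a, plxnd1, plxna3, robo1 and robo3. Added as lower were epha2a, efna2a, ntn4 and sema6d. Mutant pool 1 was the lowest mutant pool in the rows added as higher and the highest in those added as lower. Leaving that pool out by itself moves the added rows in those directions. Without wild-type pool 3 the count was 9 higher and 9 lower, 20.5% of the rows against 23.4% of all genes. Leaving out mutant pool 4 gave 10 higher and 7 lower, 19.3% against 24.3%, and leaving out wild-type pool 2 gave 10 higher and 5 lower, 17% against 23.2%. Other choices lay nearer the background. Without mutant pool 2 there were 11 higher and 13 lower (27.3% against 27.3%). Without wild-type pool 1 there were also 11 and 13 (27.3% against 25.6%), and without wild-type pool 4 there were 17 and 13 (34.1% against 33.8%). Adding the ribosomal protein share to the model, an alternative chosen after seeing the data, gave 22 rows higher and 30 lower, and 59.1% of the rows passed where 51.9% of all genes did. The 12 rows with the smallest p kept their call under each of the 19 alternatives run. They were slit1b, slit2, slit3, ntn1a, unc5c, sema3b, plxnc1 and ephb4a, higher in the mutant, and sema3fa, sema6dl, efnb3a and ephb6, lower in the mutant.

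**Figure D1:**
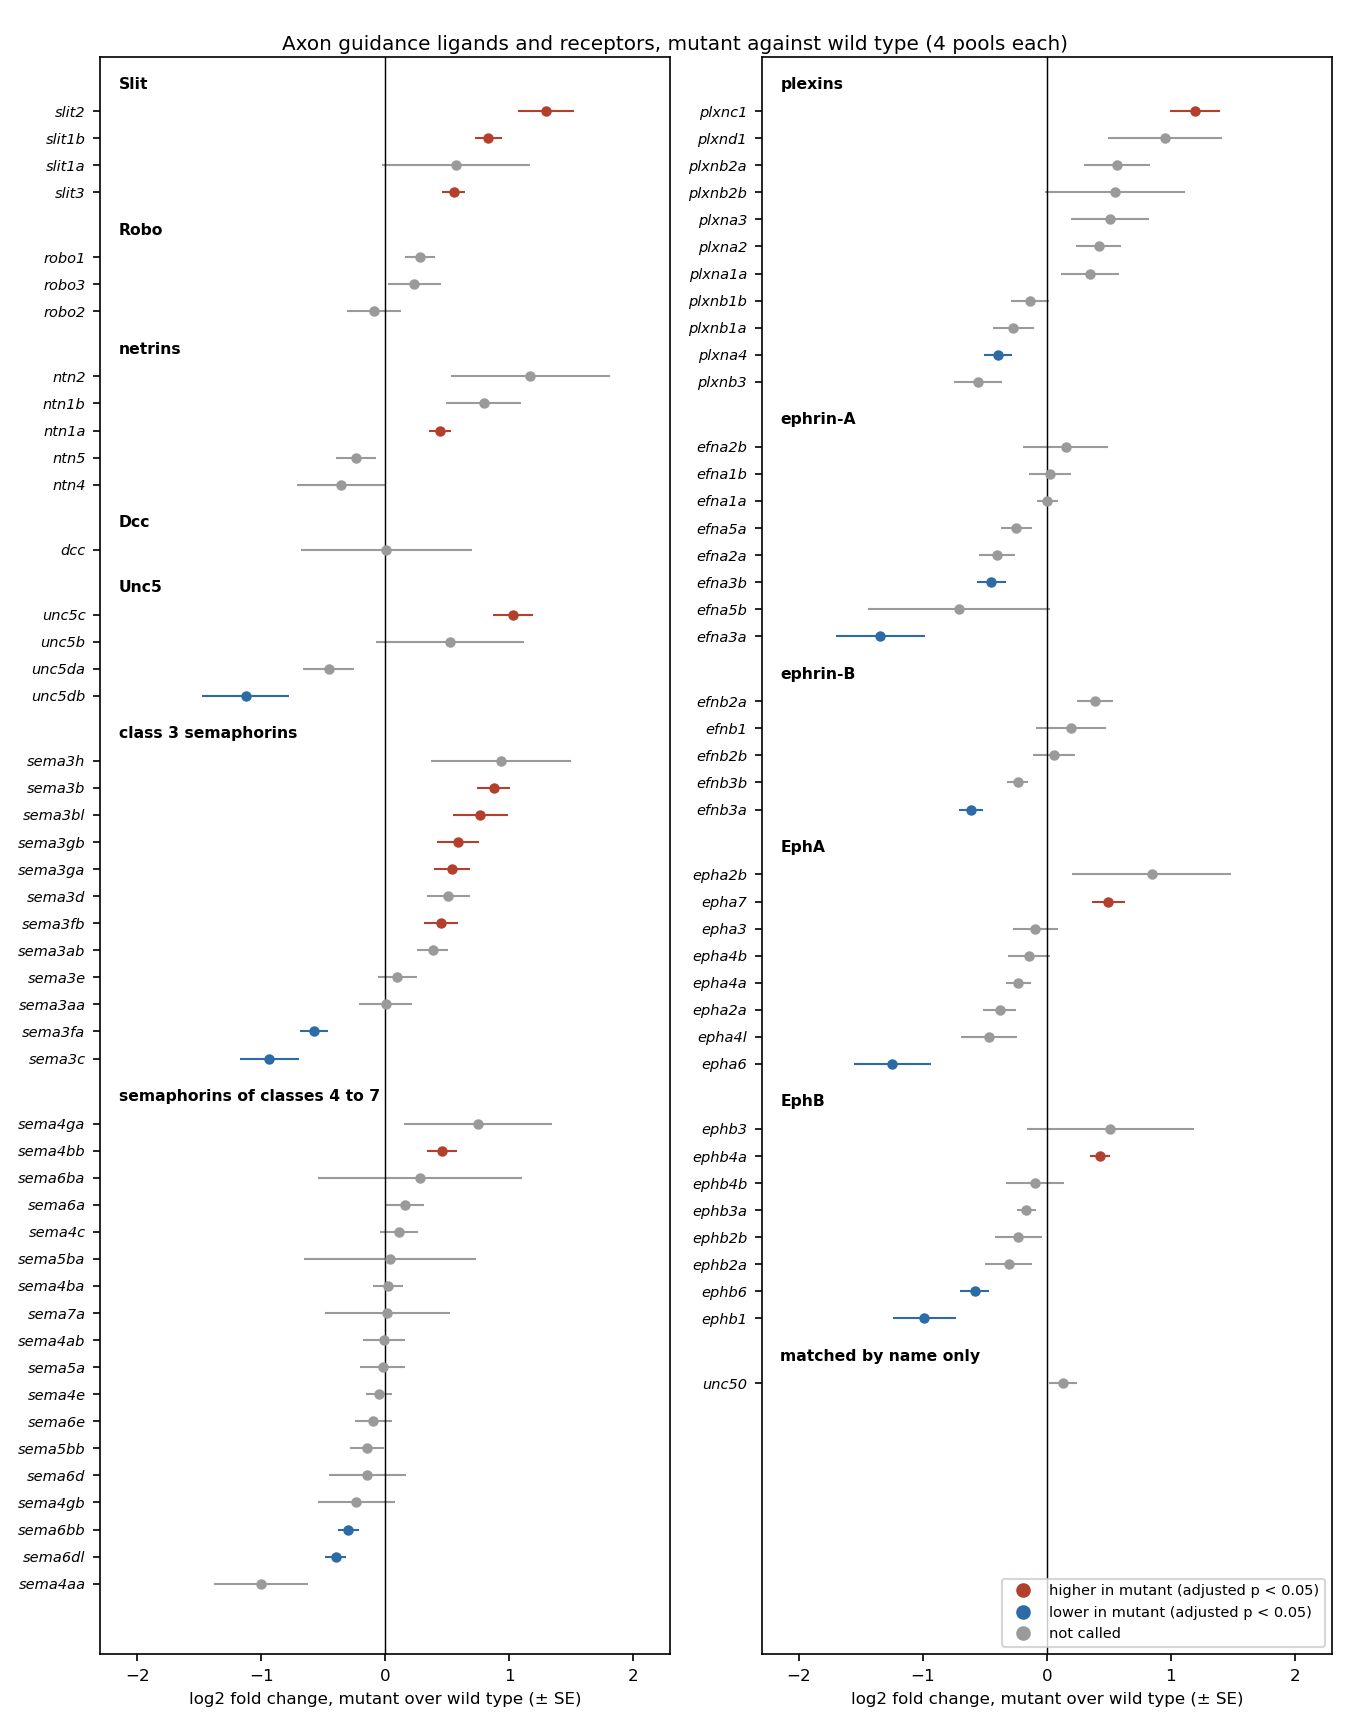
Log2 fold change of mutant over wild type (horizontal axis) for the 88 rows tested, by family, with its SE as a bar and the 14 higher and 12 lower rows coloured. The Slits lie to the right of 0, the ephrins that passed lie to the left, and rows with long bars such as sema6ba and dcc vary widely between pools of a genotype.

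Of the 4 Slit ligand genes 3 rose, where 15.8% of all genes tested were called higher. slit1b measured 63.1, 50.4, 51.6 and 56.4 CPM in mutant pools 1 to 4, against 32.3, 28.5, 34.7 and 29.1 CPM in wild-type pools 1 to 4. The genotypes did not overlap (log2 fold change 0.83, SE 0.11, adjusted p = 0.000753), and this was the smallest p of the 88 rows tested. For slit2, a midline repellent, the levels were 77.8, 149, 107 and 106 CPM in mutant pools 1 to 4, against 37.5, 41.4, 39.5 and 60.8 CPM in wild-type pools 1 to 4. All 4 mutant pools lay above the highest wild-type pool (log2 fold change 1.30, SE 0.22, adjusted p = 0.00284), with mutant pool 1 lowest and wild-type pool 4 highest within their genotypes. slit3 stood at 144, 176.7, 152 and 146 CPM in mutant pools 1 to 4, against 107, 98.7, 107 and 109 CPM in wild-type pools 1 to 4. Its pools did not overlap either, and the difference was smaller (log2 fold change 0.55, SE 0.09, adjusted p = 0.00242). The remaining Slit gene, slit1a, spread over 13.4, 107, 74.4 and 75.2 CPM in mutant pools 1 to 4, against 23.1, 51.9, 25.8 and 80.7 CPM in wild-type pools 1 to 4. The low mutant pool 1 lay below every wild-type pool and the other mutant pools lay among or above them, so no difference was detectable (log2 fold change 0.57, SE 0.60, adjusted p = 0.514). Summed over the 4 genes, Slit reads came to 388 ± 76.0 CPM in the mutant and 227 ± 36.1 CPM in wild type (SD, n = 4 each).

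The Robo receptors that bind these ligands were not called. robo1, which mediates repulsion by Slit, averaged 80.3 ± 12.7 CPM in the mutant and 66.1 ± 2.97 CPM in wild type (log2 fold change 0.28, SE 0.12, adjusted p = 0.112). It passed in 4 of the 19 alternatives. With all pools kept these were the models with the ribosomal protein share and with 1 surrogate variable, where 51.9% and 53.8% of all genes passed. With pools left out they were that without mutant pool 1, with a log2 fold change of 0.39 and an adjusted p = 0.00496, and that without both mutant pool 1 and wild-type pool 4. robo3, which lets commissural axons cross the midline, averaged 149.8 ± 39.6 CPM in the mutant and 127 ± 20.8 CPM in wild type (log2 fold change 0.23, SE 0.21, adjusted p = 0.450). Among the libraries left out singly it passed only without mutant pool 1 (adjusted p = 0.0362). For robo1 and robo3 alike mutant pool 1 was the lowest mutant pool. Leaving it out by itself moves both rows towards higher in the mutant. robo2, the astray gene of retinal axon pathfinding, averaged 26.7 ± 5.34 CPM in the mutant and 28.4 ± 7.35 CPM in wild type (log2 fold change −0.09, SE 0.22, adjusted p = 0.787). With the ribosomal protein share in the model it passed as lower (adjusted p = 0.0406).

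Among the netrins ntn1a rose, a cue made by the floor plate. It measured 71.6, 80.9, 85.4 and 87.9 CPM in mutant pools 1 to 4, against 59.5, 58.8, 62.3 and 59.4 CPM in wild-type pools 1 to 4. Every mutant pool was above every wild-type pool, and the wild-type pools were close to each other (log2 fold change 0.44, SE 0.09, adjusted p = 0.00499). Its copy ntn1b had a larger but less certain difference, at 30.0 ± 10.1 CPM in the mutant and 17.3 ± 5.07 CPM in wild type (log2 fold change 0.79, SE 0.30, adjusted p = 0.0762). Mutant pool 1 held 15.6 CPM of it and the other mutant pools 30.7 to 37.6 CPM. ntn2 (log2 fold change 1.17, SE 0.64), ntn4 (log2 fold change −0.35, SE 0.36) and ntn5 (log2 fold change −0.24, SE 0.16) did not pass. Floor plate and notochord markers, a list of 11 genes, had 4 higher, foxa2, tbxta, ntd5 and spon1b, and 1 lower, foxj1a. The calls are 45.5% of the list, against 32.2% of all genes tested, and shha and arxa were not called. The summed level of the list ran from 1712 to 2214 CPM in the mutant and from 2157 to 2301 CPM in wild type. Of this, col2a1a alone averaged 1084 ± 182 CPM in the mutant and 1372 ± 101 CPM in wild type. The floor plate regulator foxa2 averaged 24.2 ± 2.17 CPM in the mutant and 15.5 ± 2.21 CPM in wild type and passed. Whether these cells contribute to the Slit and netrin differences was not tested.

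The netrin receptor genes split. unc5c, for a receptor that repels axons from netrin, rose and stood at 27.4, 23.7, 17.7 and 18.5 CPM in mutant pools 1 to 4, against 10.9, 9.44, 10.9 and 11.6 CPM in wild-type pools 1 to 4. The genotypes did not overlap (log2 fold change 1.03, SE 0.16, adjusted p = 0.00183), and within the mutant pools 1 and 2 were the higher. unc5db fell, at 0.735 ± 0.135 CPM in the mutant and 1.60 ± 0.668 CPM in wild type (log2 fold change −1.12, SE 0.35, adjusted p = 0.0380). That call ended when any 1 of mutant pools 1, 3 and 4 or wild-type pools 2 and 4 was left out (adjusted p from 0.0587 to 0.118). unc5da, its copy, did not pass (log2 fold change −0.46, SE 0.21, adjusted p = 0.129). For unc5b, which is also known in blood vessels, the range from 7.83 to 70.9 CPM in the mutant and from 15.4 to 49.2 CPM in wild type left no detectable difference (log2 fold change 0.52, SE 0.60, adjusted p = 0.554). dcc, the attractive netrin receptor, was also scattered, from 0.589 to 4.19 CPM in the mutant and from 0.918 to 5.83 CPM in wild type (log2 fold change 0.01, SE 0.69, adjusted p = 0.993). The row unc50, no netrin receptor, averaged 14.8 ± 1.39 CPM in the mutant and 13.5 ± 0.714 CPM in wild type and was not called.

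**Figure D2:**
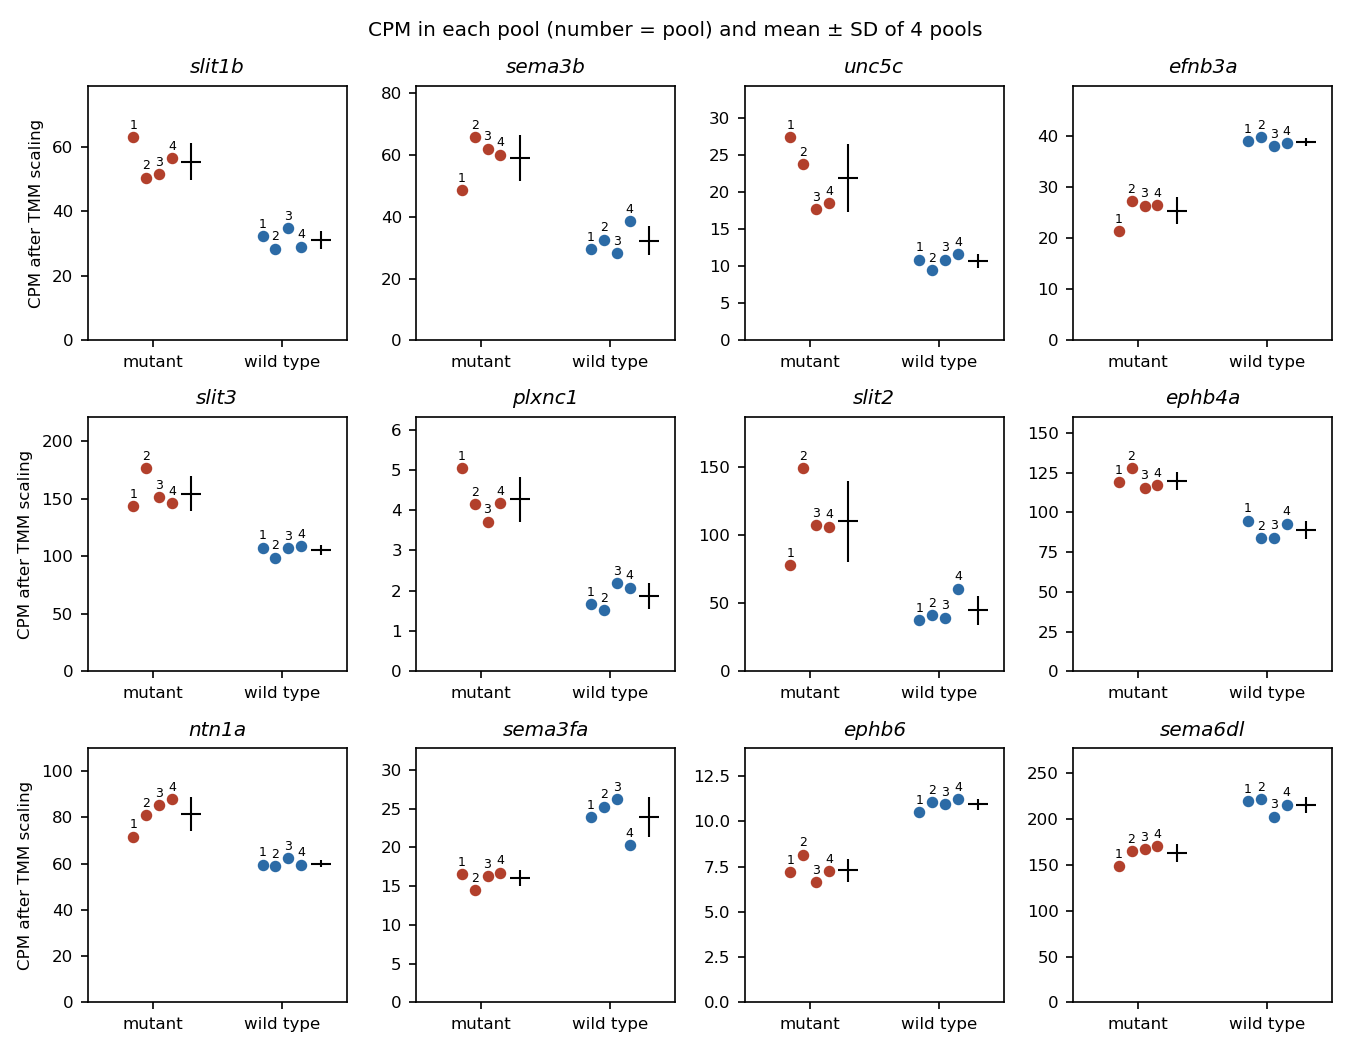
CPM after TMM scaling (vertical axis, starting at 0) in each of the 4 mutant and 4 wild-type pools, numbered, with mean ± SD, for the 12 rows of smallest p. In each panel no mutant pool overlaps a wild-type pool, for example slit1b with 50.4 CPM in its lowest mutant pool and 34.7 CPM in its highest wild-type pool.

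Class 3 semaphorins had the most calls, 5 higher and 2 lower of 12, with a median log2 fold change of 0.48. The calls are 58.3% of the family, against 32.2% of all genes tested. sema3b measured 48.5, 65.8, 62.0 and 60.1 CPM in mutant pools 1 to 4, against 29.5, 32.5, 28.3 and 38.6 CPM in wild-type pools 1 to 4. No pools overlapped between the genotypes (log2 fold change 0.87, SE 0.13, adjusted p = 0.00162). Its relative sema3bl averaged 27.1 ± 7.29 CPM in the mutant and 15.9 ± 2.96 CPM in wild type (log2 fold change 0.77, SE 0.22, adjusted p = 0.0272), sema3ga 23.4 ± 2.72 CPM in the mutant and 16.1 ± 2.68 CPM in wild type (log2 fold change 0.54, SE 0.14, adjusted p = 0.0198) and sema3gb 83.9 ± 16.8 CPM in the mutant and 56.0 ± 8.10 CPM in wild type (log2 fold change 0.58, SE 0.17, adjusted p = 0.0286). These rises were less firm, and the pools of sema3bl and sema3gb overlapped between the genotypes. The call of sema3ga ended without wild-type pool 2 or 3 (adjusted p = 0.0742 and 0.0637), and those of sema3bl and sema3gb ended without most single libraries, mutant pool 1, wild-type pool 4 and, for sema3gb, wild-type pool 2 excepted (adjusted p from 0.0656 to 0.0781 and from 0.0624 to 0.0833).

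The copies sema3fa and sema3fb went opposite ways. Levels of sema3fa were 16.6, 14.4, 16.3 and 16.7 CPM in mutant pools 1 to 4, against 23.9, 25.2, 26.2 and 20.2 CPM in wild-type pools 1 to 4. The highest mutant pool lay below the lowest wild-type pool (log2 fold change −0.58, SE 0.11, adjusted p = 0.00511). sema3fb was higher at 46.9 ± 7.78 CPM in the mutant and 34.3 ± 2.82 CPM in wild type (log2 fold change 0.45, SE 0.14, adjusted p = 0.0331). Mutant pool 1, at 35.3 CPM, fell within the wild-type range of 30.9 to 37.8 CPM. Its call ended when any 1 of mutant pools 2, 3 and 4 or wild-type pools 2, 3 and 4 was left out (adjusted p from 0.0552 to 0.0963), and it also ended under upper-quartile scaling. sema3c, a semaphorin with known parts in heart outflow tract development in mammals, fell and averaged 4.13 ± 1.12 CPM in the mutant and 7.90 ± 1.54 CPM in wild type (log2 fold change −0.94, SE 0.24, adjusted p = 0.0165). Without wild-type pool 2 it no longer passed (adjusted p = 0.0588). The others were not called. sema3ab (log2 fold change 0.38, SE 0.13, adjusted p = 0.0503) and sema3d (log2 fold change 0.51, SE 0.17, adjusted p = 0.0524) missed the threshold narrowly, with mutant pool 1 lowest among the mutant pools in both, and sema3e (log2 fold change 0.10, SE 0.16) and sema3aa (log2 fold change 0.00, SE 0.21) were close to 0.

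Of the 18 semaphorins of classes 4 to 7, 1 rose and 2 fell, 16.7% called against 32.2% of all genes tested. sema6dl, a class 6 transmembrane semaphorin, fell and held 149, 165, 167 and 171 CPM in mutant pools 1 to 4, against 219.8, 222, 203 and 216 CPM in wild-type pools 1 to 4. All mutant pools lay below the lowest wild-type pool (log2 fold change −0.40, SE 0.08, adjusted p = 0.00637). sema6bb was lower at 20.6 ± 0.843 CPM in the mutant and 25.3 ± 1.15 CPM in wild type (log2 fold change −0.30, SE 0.09, adjusted p = 0.0281), and sema4bb was higher at 52.8 ± 6.85 CPM in the mutant and 38.4 ± 3.93 CPM in wild type (log2 fold change 0.46, SE 0.12, adjusted p = 0.0189). Neither call was firm. That of sema6bb ended when any 1 of mutant pools 2 to 4 or wild-type pools 1 and 2 was left out (adjusted p from 0.0618 to 0.0796), and that of sema4bb without mutant pool 3 or wild-type pool 1 or 3 (adjusted p from 0.0549 to 0.0608). The other 15, among them sema7a at 0.485 ± 0.262 CPM in the mutant and 0.479 ± 0.148 CPM in wild type, did not pass.

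Of the 11 plexin receptor genes 1 rose and 1 fell, 18.2% called against 32.2% of all genes tested. plxnc1, whose mammalian counterpart is a receptor of semaphorin 7A, measured 5.05, 4.15, 3.71 and 4.18 CPM in mutant pools 1 to 4, against 1.66, 1.53, 2.19 and 2.08 CPM in wild-type pools 1 to 4. All mutant pools were above all wild-type pools (log2 fold change 1.195, SE 0.20, adjusted p = 0.00248). plxna4, a partner of neuropilins for class 3 semaphorins, was lower at 20.9 ± 2.44 CPM in the mutant and 27.4 ± 2.01 CPM in wild type (log2 fold change −0.39, SE 0.11, adjusted p = 0.0296). That call ended when any 1 of mutant pools 3 and 4 or wild-type pools 2, 3 and 4 was left out (adjusted p from 0.05005 to 0.1001). plxnd1, a receptor known for keeping intersegmental vessels in line in zebrafish, spread from 3.91 to 16.5 CPM in the mutant and from 3.00 to 8.89 CPM in wild type and was not called (log2 fold change 0.95, SE 0.46, adjusted p = 0.149). Without mutant pool 1, the lowest of its mutant pools, it passed (adjusted p = 0.0335). Leaving out that pool by itself moves plxnd1 towards higher in the mutant. plxnb1b, with the most plexin reads over both genotypes together though not in the mutant alone, averaged 80.2 ± 13.9 CPM in the mutant and 88.1 ± 12.4 CPM in wild type (log2 fold change −0.13, SE 0.15, adjusted p = 0.549).

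None of the 13 ephrin genes rose and 3 fell, 23.1% called against 32.2% of all genes tested. efnb3a, a membrane-spanning ephrin, stood at 21.4, 27.3, 26.4 and 26.5 CPM in mutant pools 1 to 4, against 39.0, 39.9, 38.1 and 38.6 CPM in wild-type pools 1 to 4. No mutant pool reached the lowest wild-type pool, and the wild-type pools lay within 2 CPM of each other (log2 fold change −0.61, SE 0.10, adjusted p = 0.00202). The membrane-anchored efna3b averaged 27.2 ± 2.20 CPM in the mutant and 37.2 ± 4.62 CPM in wild type (log2 fold change −0.45, SE 0.12, adjusted p = 0.0178) and its copy efna3a, with few reads, 0.455 ± 0.181 CPM in the mutant and 1.18 ± 0.274 CPM in wild type (log2 fold change −1.34, SE 0.36, adjusted p = 0.0206). Both ephrin-A calls ended without wild-type pool 2 or 3 (adjusted p = 0.0675 and 0.0571 for efna3b, 0.0502 and 0.0655 for efna3a). efna1a was level (log2 fold change 0.00, SE 0.09), and efna2b had the lowest p of the ephrin-A genes with a positive difference (log2 fold change 0.15, SE 0.34). efnb2a, the ephrin of arteries, averaged 164 ± 27.9 CPM in the mutant and 125 ± 15.9 CPM in wild type. It was not called (log2 fold change 0.39, SE 0.15, adjusted p = 0.0772), but passed in 7 of the 19 alternatives. With all pools kept these included DESeq2 (adjusted p = 0.0450), and with a pool left out they were those without mutant pool 1 (adjusted p = 0.00817), without wild-type pool 4 (adjusted p = 0.0493) and without both. For efnb2a mutant pool 1 was the lowest mutant pool and wild-type pool 4 the highest wild-type pool. Leaving out either by itself moves the row towards higher in the mutant. Over all 19 the adjusted p ran from 0.000711 to 0.185.

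The Eph receptors had 2 genes higher and 3 lower of 16, 31.2% called against 32.2% of all genes tested. ephb4a, the receptor of ephrin-B2 in veins, measured 119, 128, 115 and 117 CPM in mutant pools 1 to 4, against 94.8, 83.8, 84.1 and 92.8 CPM in wild-type pools 1 to 4. The pools of the genotypes did not overlap (log2 fold change 0.43, SE 0.08, adjusted p = 0.00425). ephb6, which in mammals encodes a receptor without kinase activity, stood at 7.20, 8.16, 6.62 and 7.25 CPM in mutant pools 1 to 4, against 10.5, 11.04, 10.96 and 11.2 CPM in wild-type pools 1 to 4. Each mutant pool was below each wild-type pool (log2 fold change −0.58, SE 0.12, adjusted p = 0.00560). ephb1 fell as well, with few reads, at 0.880 ± 0.206 CPM in the mutant and 1.75 ± 0.181 CPM in wild type (log2 fold change −0.99, SE 0.25, adjusted p = 0.0175). Among EphA genes epha7 rose, averaging 53.1 ± 6.46 CPM in the mutant and 37.6 ± 5.54 CPM in wild type (log2 fold change 0.50, SE 0.13, adjusted p = 0.0214), and epha6 fell, averaging 0.600 ± 0.189 CPM in the mutant and 1.43 ± 0.228 CPM in wild type (log2 fold change −1.25, SE 0.31, adjusted p = 0.0148). The calls of epha7 and ephb1 ended without mutant pool 4 or wild-type pool 2 (adjusted p up to 0.0724 and 0.0553), and that of epha6 without mutant pool 4 (adjusted p = 0.0509). epha4a, with the most EphA reads over both genotypes together though not in wild type alone, was below wild type in every mutant pool, at 125 ± 16.1 CPM in the mutant and 147 ± 2.33 CPM in wild type, without passing (log2 fold change −0.23, SE 0.10, adjusted p = 0.128). In the model with the ribosomal protein share, epha2a, epha3, epha4a, epha4b and epha4l passed too, all lower in the mutant. So did ephb3a and ephb2b and rows of other families. That model gave 30 rows lower in all, and 51.9% of all genes passed in it, so this is not particular to the EphA genes.

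Endothelial markers moved both ways beside the vascular members ephb4a, efnb2a and plxnd1. Of 11 markers 3 rose and 3 fell, 54.5% called against 32.2% of all genes tested. Their summed level was 249 to 314 CPM in the mutant and 188 to 236 CPM in wild type. The largest rises in CPM within this sum were those of etv2 and kdr, whereas cdh5, fli1a, tie1, tek and egfl7 were not called. The early regulator etv2 averaged 52.4 ± 5.99 CPM in the mutant and 20.3 ± 4.00 CPM in wild type, and kdrl, a vascular endothelial growth factor receptor gene, averaged 18.8 ± 2.08 CPM in the mutant and 25.3 ± 2.83 CPM in wild type. By contrast kdr, a gene of the same receptor family, was called higher, at 23.7 ± 16.9 CPM in the mutant and 8.02 ± 3.36 CPM in wild type. Its pools overlapped between the genotypes (log2 fold change 1.56, SE 0.47, edgeR adjusted p = 0.0346). The part of the endothelial markers in the results for these members was not tested.

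In 14 rows the highest pool exceeded the lowest by more than 2-fold within both genotypes, and none of the 14 was called. They are slit1a, dcc, unc5b, ntn2, sema3h, sema4aa, sema4ga, sema5ba, sema6ba, plxnb2b, plxnd1, epha2b, ephb3 and efna5b, 15.9% of the rows tested, where 21.9% of all genes tested spread this widely. Mutant pool 1 was the lowest mutant pool and mutant pool 2 the highest in all 14. Wild-type pool 4 was the highest wild-type pool in 13, and wild-type pool 1 or 3 the lowest in 9 and 4. Spread within a genotype also raises p, so the way these rows were picked makes calls unlikely among them. The order of the pools was not counted over all genes of such spread, so it has no background here. The widest was sema6ba, at 0.379, 11.02, 5.74 and 5.39 CPM in mutant pools 1 to 4, against 1.66, 5.44, 2.05 and 9.32 CPM in wild-type pools 1 to 4. Mutant pool 1 and wild-type pool 1 had the highest ribosomal protein share of their genotypes and mutant pool 2 and wild-type pool 4 the lowest; the part of this share in the spread was not tested. ephb3 ran the same way, at 3.03, 50.4, 28.5 and 30.1 CPM in mutant pools 1 to 4, against 11.7, 21.5, 12.6 and 32.7 CPM in wild-type pools 1 to 4. Leaving out mutant pool 1 and wild-type pool 4 removes the lowest mutant pool in all 14 rows and the highest wild-type pool in 13, which by itself moves these rows towards higher in the mutant, so the 8 that then passed as higher say nothing of their direction. With that share as a covariate 1 passed as higher, plxnd1, and 3 as lower, efna5b, sema4aa and sema5ba. With 1 surrogate variable in place of that covariate 4 passed as higher, plxnd1, ntn2, sema3h and epha2b, and 2 as lower, efna5b and sema4aa. Of all genes 53.8% passed with it, so passing was not particular to these rows in either model. The fitted log2 difference of slit1a was 0.57 without a covariate, −0.03 with the ribosomal protein share and 0.26 with the surrogate variable, and it passed in none of these.

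**Figure D3:**
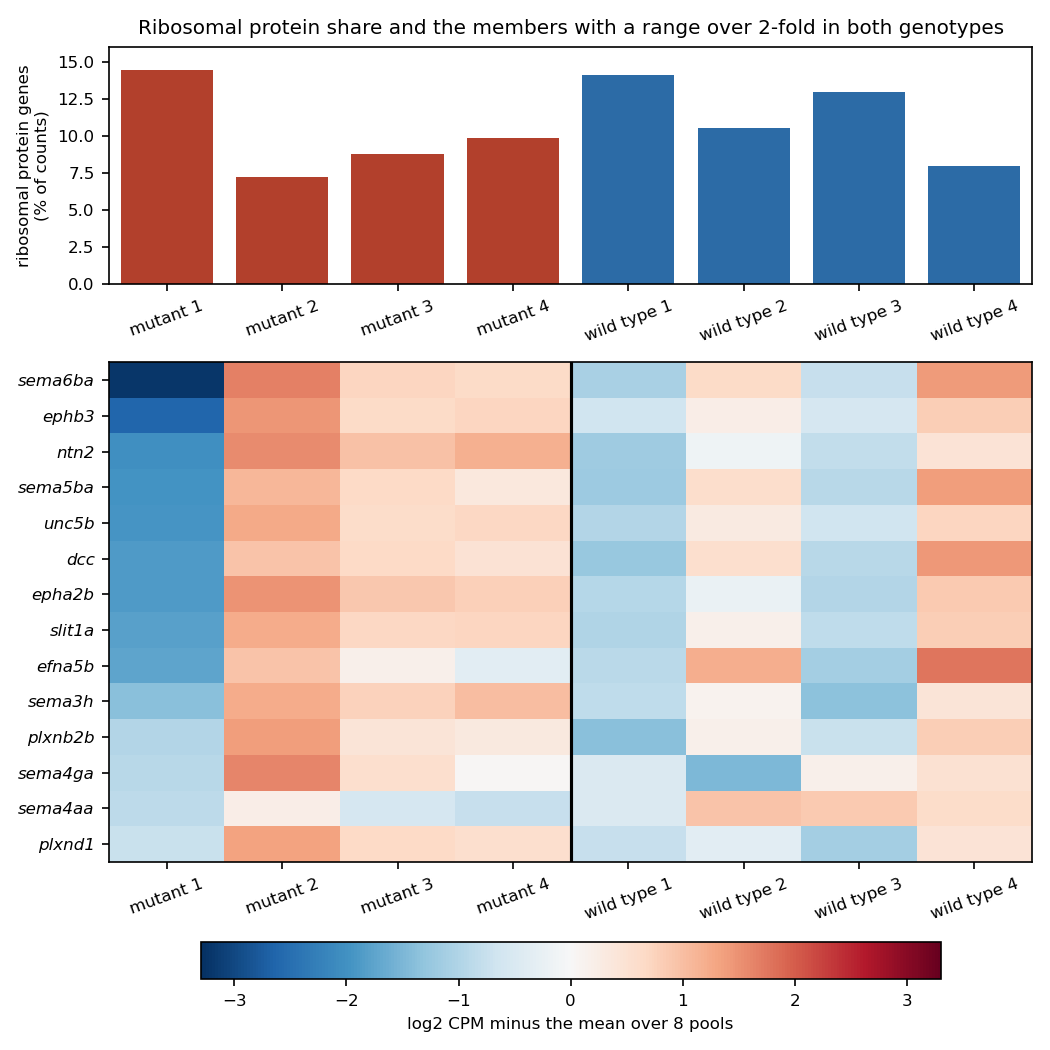
Upper panel: share of counts in ribosomal protein genes (percent, bars from 0) in the 4 mutant and 4 wild-type pools. Lower panel: log2 CPM minus the mean over the 8 pools, as colour, for the 14 rows with a range over 2-fold in both genotypes, where mutant pool 1 is low throughout and mutant pool 2 and wild-type pool 4 are mostly high.

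Zebrafish kept duplicate copies of many of these genes, and 23 pairs of copies named a and b were both tested. The log2 ratio of copy a to copy b was compared between genotypes with a two-sided exact permutation test, whose smallest p with 4 against 4 pools is 0.0286. In 4 pairs the ratios did not overlap and reached that p, with an adjusted p = 0.164 over the 23 pairs, so none passed. With this many pairs that p could pass only if many more pairs reached it, so the adjusted result decides little. No such count was made for copies of other genes, so the 4 pairs have no background to be set against. For single genes, a different measure, 33.7% of all tested did not overlap. Among the 4 pairs the largest difference was for sema3fa over sema3fb. Its mean log2 ratio was −1.51 ± 0.31 in the mutant and −0.51 ± 0.23 in wild type. The others were sema3aa over sema3ab (−0.09 ± 0.18 in the mutant and 0.29 ± 0.19 in wild type), efnb3a over efnb3b (−2.14 ± 0.17 in the mutant and −1.77 ± 0.08 in wild type) and plxnb1a over plxnb1b (−0.86 ± 0.03 in the mutant and −0.73 ± 0.02 in wild type). The pair slit1a and slit1b showed no detectable difference (exact p = 0.714), with mutant pool 1 far below the others. Without mutant pool 1 the count of pairs with no overlap was 8. Leaving out a pool can raise this count but never lower it.

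**Figure D4:**
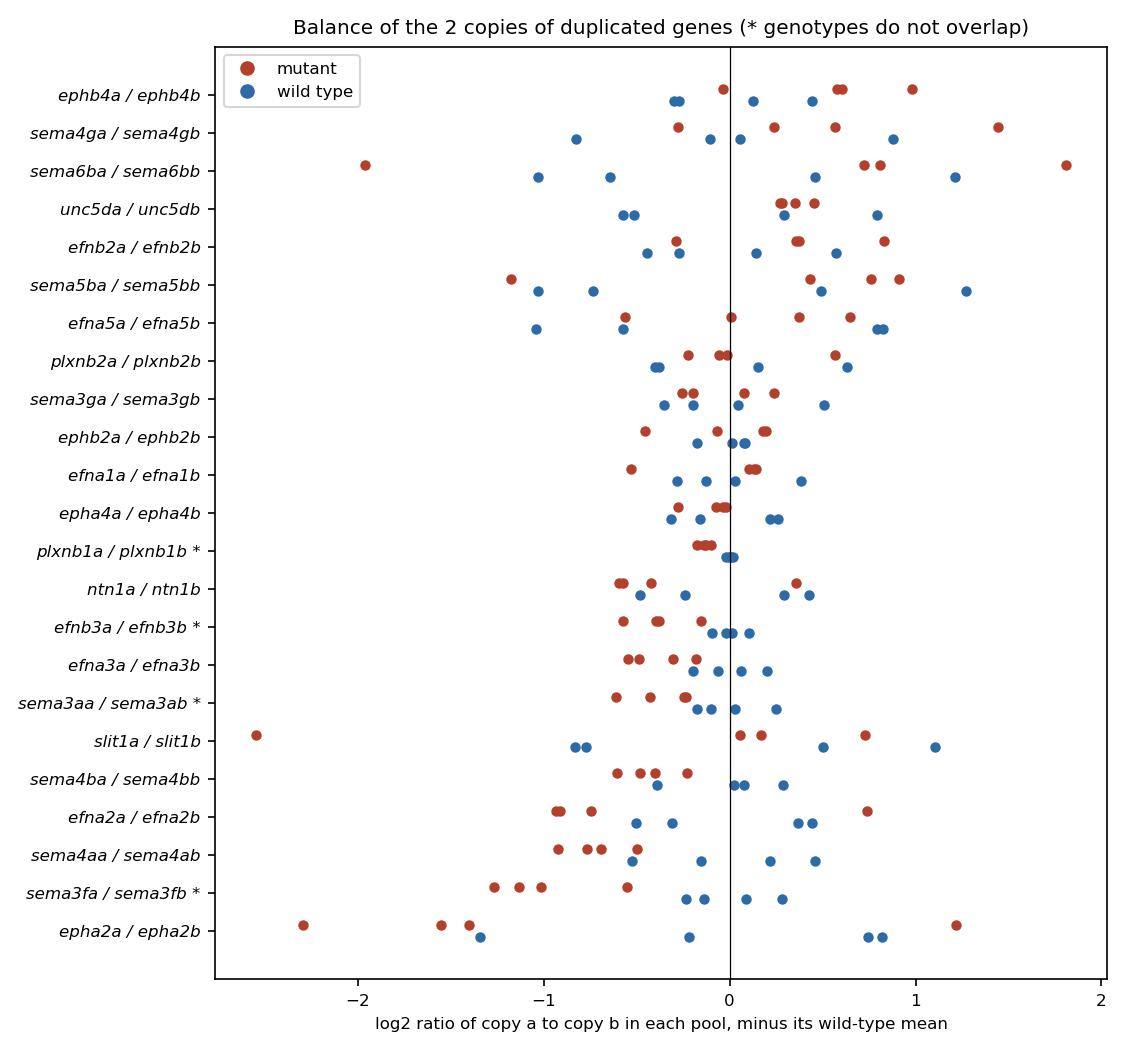
Log2 ratio of copy a to copy b in each mutant and wild-type pool, minus the mean of that ratio in wild type (horizontal axis), for 23 pairs of duplicate genes. Asterisks mark the 4 pairs in which no mutant pool overlaps a wild-type pool, with sema3fa over sema3fb the farthest apart.

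Other genes of axon guidance, chiefly coreceptors, adhesion proteins and cytoplasmic mediators, were taken from a list of 100, of which 97 were matched and 95 tested. Of these 12 were higher and 24 lower in the mutant, 37.9% in all, against 32.2% of all genes tested, and the median log2 fold change was 0.06. nrp2b, a neuropilin coreceptor for class 3 semaphorins, averaged 148 ± 17.4 CPM in the mutant and 74.9 ± 9.22 CPM in wild type (log2 fold change 0.99, SE 0.12, adjusted p = 0.000611). nell2a, whose mouse counterpart is a ligand of Robo3, averaged 80.4 ± 6.95 CPM in the mutant and 12.8 ± 1.63 CPM in wild type (log2 fold change 2.65, SE 0.12, adjusted p = 4.07e-06). On the lower side were dpysl2b, for a collapsin response mediator that acts downstream of semaphorins, at 62.4 ± 5.56 CPM in the mutant and 111 ± 6.26 CPM in wild type (log2 fold change −0.83, SE 0.09, adjusted p = 0.000325), and chl1b, for a neural adhesion protein, at 34.1 ± 2.63 CPM in the mutant and 63.8 ± 4.13 CPM in wild type (log2 fold change −0.90, SE 0.09, adjusted p = 0.000217).

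Neuron markers were lower in the mutant. Of 18 genes of postmitotic neurons 13 fell and none rose, with a median log2 fold change of −0.97. The calls are 72.2% of the list, against 32.2% of all genes tested (15.8% higher and 16.3% lower). The summed level of the list ran from 819 to 969 CPM in the mutant and from 1220 to 1434 CPM in wild type. elavl4, for a neuronal RNA-binding protein, averaged 27.2 ± 2.36 CPM in the mutant and 62.7 ± 6.48 CPM in wild type. Progenitor markers had 2 higher and 6 lower of 14, 57.1% called. Their sum was 1792 to 2037 CPM in the mutant and 2112 to 2365 CPM in wild type. For retinal ganglion cells 1 rose and 1 fell of 6 tested, 33.3% called, which is near the share over all genes. Too few reads were found to test atoh7 and pou4f3. They had 5 and 6 counts over the mutant libraries and 27 and 18 over the wild-type libraries. Skeletal muscle markers fell in 13 of 16 cases and none rose, 81.2% called. Those not called were myog, myod1 and smyhc1. The summed level of the muscle list was 1883 to 2489 CPM in the mutant and 6174 to 9381 CPM in wild type. Of this, smyhc1 alone averaged 1020 ± 208 CPM in the mutant and 1139 ± 435 CPM in wild type. In neural crest 1 rose and 1 fell of 7 (28.6% called), and in epidermis and periderm 1 rose and 1 fell of 9 (22.2% called). Both shares lie below that of all genes tested. The neuron list shares 3 genes with the list of other axon guidance genes, gap43, stmn2a and stmn2b, of which stmn2a and stmn2b count as lower in both, and 1 with the ganglion cell list, isl2b, also lower in both. None of these lists shares a gene with the 90 rows, and the part of any of these tissues in the differences above was not tested.

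**Figure D5:**
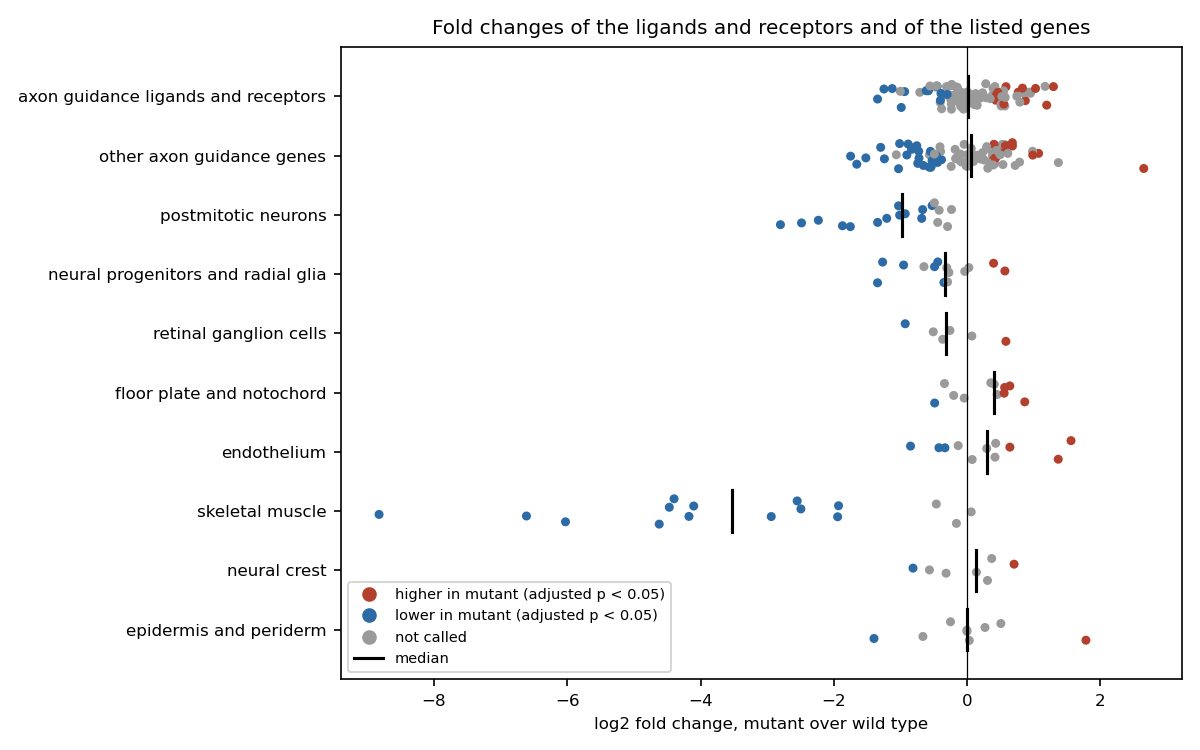
Log2 fold change of mutant over wild type (horizontal axis) for the 88 ligand and receptor rows tested, the 95 other axon guidance genes and the markers of 8 tissues, 1 point per gene with the median as a line. The ligands and receptors are centred near 0 (median 0.02), whereas neuron markers (median −0.97) and muscle markers (median −3.52) lie to the left.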

How the data were processed

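Expected counts for each gene and library were deposited by the authors, unscaled. The submitters' processing notes list Trimmomatic, STAR 2.7, RSEM and danRer11. Settings, annotation and strandedness are not given in the sources, so overlapping and antisense genes may share reads. For 16 of the 90 rows the expected counts were not whole (tolerance 0.005) in at least 1 library. These, among them slit2, unc5c, sema6dl, sema3ga, plxna4 and ephb1, can include reads divided between similar sequences and are less certain.

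The counts were rounded, filtered with filterByExpr and scaled by TMM, and genotype was tested across all genes kept with edgeR 4.0.16 (glmQLFit with robust estimation, glmQLFTest, two-sided) in R 4.3.3, with Benjamini-Hochberg adjustment and a threshold of 0.05. Levels are CPM after TMM scaling, comparable between libraries but not between genes, since no lengths were used. The SE is the size of the log2 fold change divided by the square root of F. Ratios of copies used log2(CPM + 0.5). The edgeR steps were first tested on counts simulated independently for each gene, without the shared differences between pools seen here. That test therefore says nothing of the effect of such differences. The permutation test was run only on a fixed example. No 2 libraries of a genotype agreed within sampling noise (chi-square per degree of freedom at least 5.80, for wild-type pools 1 and 3). These 2 were much more alike than any other pair within a genotype, for which the value was at least 22.5. They may not be independent, so 1 alternative counted them as 1 sample. DESeq2 1.42.0 and sva 3.50.0 served as alternatives.

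The members follow a name pattern, and the members and lists were chosen with earlier results of these data known. Values were given for every row that passed, for the row of smallest p in each direction and of most reads in each family, and for up to 2 genes a direction per list. Of the listed symbols 3 were not matched. No genome, sequences or coordinates were used here, apart from the chromosome membership given at the end.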

Additional observations from a re-analysis of the deposited data

Results flagged for a closer look

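Of 176 sets of 4 pools screened (88 rows in 2 genotypes), 15 had 1 pool far from the other three, where chance gives about 1 in 20. Mutant pool 1 was that pool in 9. It was low for efna5a (37.4 CPM, against 50.7 to 51.9 CPM in the other mutant pools), efnb2a (122 CPM, against 176 to 181 CPM), efnb3a (21.4 CPM, against 26.4 to 27.3 CPM), plxna4 (17.3 CPM, against 21.6 to 22.5 CPM), robo3 (90.8 CPM, against 163 to 173 CPM), sema3ab (52.6 CPM, against 72.8 to 76.2 CPM) and sema4c (21.1 CPM, against 31.1 to 32.7 CPM). It was high for efna1b (52.4 CPM, against 37.8 to 40.1 CPM) and sema6d (33.0 CPM, against 13.03 to 16.2 CPM). Mutant pool 2 was high for sema4ba (33.2 CPM, against 26.5 to 27.5 CPM), sema6e (21.1 CPM, against 15.4 to 16.3 CPM) and unc5db (0.937 CPM, against 0.643 to 0.689 CPM). Wild-type pool 4 was high for sema3bl (20.3 CPM, against 14 to 15 CPM) and slit2 (60.8 CPM, against 37.5 to 41.4 CPM), and low for sema6a (32.1 CPM, against 40.1 to 41.4 CPM). These are the pools at the ends of the range of ribosomal protein share, and the part of that share in these values was not tested.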

How the results depend on the processing

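No call of a row reversed its direction under any of the 19 alternatives, and 12 of the 26 calls held under each. Leaving out 1 library at a time gave 9 to 26 rows higher, 5 to 15 lower, and 5310 to 8602 genes called in all. Under the other scalings, filters, tools and groupings the rows higher ran from 10 to 18, the rows lower from 10 to 17 and all genes called from 5757 to 8439, with DESeq2 at 18 higher and 17 lower, adding sema3ab, sema3d, efnb2a and ntn1b as higher and epha2a, efna2a, efnb3b, plxnb3 and sema4aa as lower. Counting wild-type pools 1 and 3, the pair most alike, as 1 sample ended the calls of sema3bl, sema3gb, sema3fb, plxna4, sema4bb and sema6bb. Testing without a filter on low counts ended those of sema6bb and unc5db. Of the alternatives added after seeing the data, the ribosomal protein share as a covariate gave 22 higher, 30 lower and 11670 genes called in all. With 1 surrogate variable these were 27, 26 and 12084, and without both mutant pool 1 and wild-type pool 4 they were 34, 18 and 11385, and the call of unc5db ended. That last choice removes the pools that are lowest in the mutant and highest in wild type for rows of wide spread, and so favours higher calls among them. The median log2 fold change of the rows stayed between −0.10 and 0.16. Pairs of copies with no overlap numbered 4 to 8 without 1 library, a count that leaving out a library cannot lower. They numbered 4 to 5 under other pseudocounts or unrounded counts. Replicate numbers did not pair the pools (correlation of deviations 0.65, 0.17, −0.27 and 0.09 for numbers 1 to 4). The replicate block gave 17 higher and 14 lower, ended the calls of sema3fb and sema6bb, and its value for all genes called was 7193. Depth limits the precision for rows with few reads, such as epha6, efna3a and unc5db.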

Other observations

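Within the Slit family slit2 took 28.1 ± 1.99% of the summed CPM in the mutant and 19.6 ± 1.45% in wild type, and slit3 took 40.5 ± 5.24% in the mutant and 47.2 ± 6.71% in wild type (SD, n = 4 each, no test). These shares are not corrected for transcript length.

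By chromosome membership in RefSeq's table of another assembly, GRCz12tu, which holds 85 of the 90 symbols, 4 rows share the chromosome of osgep. They were plxnc1, higher, plxna4 and sema3c, lower in the mutant, and sema3aa, not called. Of all rows tested 29.5% were called, and of all genes tested 32.2%. Other genes of that chromosome were not looked up, so 4 rows cannot tell whether it holds more calls than others. The lookup followed the results and carries no test.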
